A study of Arabidopsis thaliana with 4 samples.

Results

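The class III homeodomain-leucine zipper (HD-ZIP) genes of Arabidopsis comprise *PHABULOSA* (*PHB*, AT2G34710), *PHAVOLUTA* (*PHV*, AT1G30490), *REVOLUTA* (*REV*, AT5G60690), *CORONA* (*CNA*, also *ATHB15*, AT1G52150) and *ATHB8* (AT4G32880). All 5 were chosen by locus identifier, with the gene models of a locus summed, and all 5 were measured among 27206 loci. They were compared between inflorescences and siliques of the *stk* mutant (2 libraries) and of wild-type plants (2 libraries), both of the ecotype Columbia and collected up to 5 days after pollination. SEEDSTICK (STK) is a MADS-domain transcription factor that specifies ovule identity, and the study's *stk-2* allele carries an insertion near a splice site of the third intron. The labels describe the duplicates as biological replicates without giving the number of plants in each, and plants were grown under short or long days without a statement of which entered which library.

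Class III HD-ZIP proteins join a homeodomain and a leucine zipper to a START domain, a fold related to lipid-binding domains. In leaf and floral organ primordia they specify the adaxial (upper) side, and they also act in shoot meristems, in vascular tissue and in the integuments of the ovule. Their transcripts are cleaved under the guidance of miR165 and miR166, which confines the proteins to the adaxial side. KANADI proteins act as abaxial antagonists, and LITTLE ZIPPER (ZPR) proteins bind class III HD-ZIP proteins and hold them in an inactive form.

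The sequences shown first are the pair of mature miRNAs and the site they recognise. All 5 transcripts carry this site, and the rule that chose them did not use it. Both miRNAs are written 5′ to 3′ with the seed (bases 2 to 8) in capitals. They were read from the TAIR10.1 genome at the mature miRNA features of the RefSeq annotation. The sequence of miR165 is encoded at 2 loci and that of miR166 at 7 loci.
miR165: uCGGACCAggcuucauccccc
miR166: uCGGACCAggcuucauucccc
The seeds are identical, and the only difference is C17U, counted from the 5′ end of the miRNA with the base of miR165 first. In each target below, capitals mark the bases left unpaired by Watson-Crick rules with the better matching miRNA, which is miR165 for *PHB*, *PHV*, *REV* and *ATHB8* and miR166 for *CNA*.
PHB: UUgggaugaagccugguccgG
PHV: UUgggaugaagccugguccgG
REV: CUgggaugaagccugguccgG
ATHB8: CUgggaugaagccugguccgG
CNA: CUggaaugaagccugguccgG
The capitals lie opposite miRNA positions 1, 20 and 21 in every member. With the other miRNA of the pair, each site has 1 further mismatch, opposite position 17.

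In every member the site of 21 bases lay in the coding sequence and was split by an intron, with 11 bases at the end of one exon and 10 at the start of the next. The exons were 4 and 5 in *PHB*, *PHV*, *REV* and *CNA*, and 5 and 6 in *ATHB8*. On TAIR10.1 the sites spanned chr2:14642530-14642666 in *PHB*, chr1:10799330-10799445 in *PHV*, chr1:19412976-19413085 in *CNA* and chr4:15866872-15866974 in *ATHB8*, all on the minus strand, and chr5:24398787-24398898 on the plus strand in *REV*. Of 31346 loci, each searched in its longest annotated mRNA, 5 held a site with at most 3 mismatches to either miRNA, and these 5 were the class III HD-ZIP genes. With at most 4 mismatches the number was 12 loci, and with at most 5 it was 75. All 3 gene models of *CNA* contain the site. The loci of the miRNA precursors themselves were not analysed here.

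The expression values are RPKM, that is reads scaled to exon length and to the size of the library, as calculated by the authors for each gene model. Library sizes, estimated from the steps between low RPKM values, ranged from 30564185 to 33673020 reads in *stk* and from 16965995 to 21075042 reads in wild type. According to the file headers *stk* replicate 1 was sequenced in lane 7 and the other 3 libraries in lane 1. The design description, by contrast, speaks of the same lane for all, and this conflict was not resolved. The mutation was visible in the libraries, as *STK* had 7.91 and 7.96 RPKM in *stk*, against 38.7 and 40.9 RPKM in wild type. Differences are given as log2 fold changes of log2(RPKM + 1), *stk* minus wild type, fitted with limma over the 19044 loci that averaged at least 1 RPKM, with Benjamini-Hochberg adjustment over all of them. This scale understates the change of weakly expressed genes. Because whole inflorescences and siliques were sequenced, fewer cells of a type and less RNA per cell cannot be told apart.

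None of the class III HD-ZIP genes passed the test between *stk* and wild type. Their log2 fold changes lay between -0.18 for *PHB* and 0.04 for *ATHB8*, with a median of 0.00 beside a median of -0.05 over all loci tested. The unadjusted p was above 0.05 in every member, a threshold that 5.66% of all loci passed as higher in *stk* and 3.53% as lower. An adjusted p under 0.05 was reached by 0% of all loci, *STK* included (log2 fold change -2.19, standard error 0.13, adjusted p = 0.0884 by limma), although 1749 loci were at or under 0.05 before adjustment. The study used Baggerley's test. A version of that test, rewritten from its published form and run on summed RPKM, put 22 loci past the adjusted threshold. It took RPKM in place of read counts, with library totals of 586278 to 680016, far below the numbers of reads. Its sampling variance is thus larger than one based on reads. Its ratios compare shares of the summed RPKM of a library, a total that was highest in *stk* replicate 1. The 5 genes together summed to 104 and 116 RPKM in the *stk* libraries, against 117 and 111 RPKM in the wild-type libraries.

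**Figure D1:**
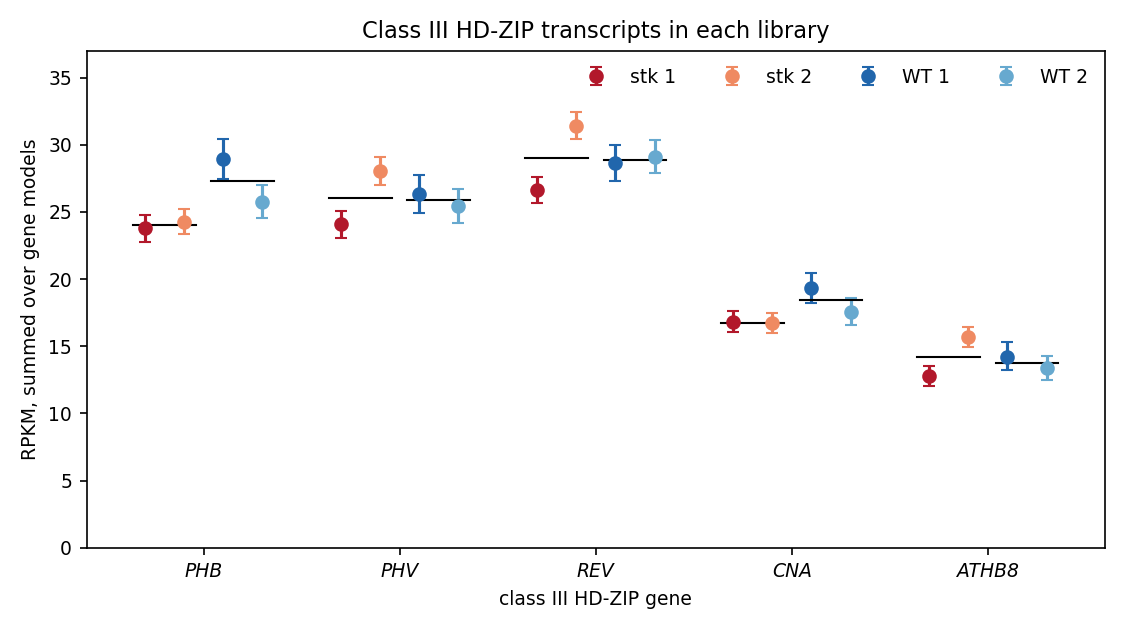
RPKM of the class III HD-ZIP genes (vertical axis, models summed per locus) in each *stk* and wild-type (WT) library. Points are single libraries, bars are exact Poisson 95% intervals that cover counting error only, and horizontal lines are group means. *PHB* and *CNA* had both *stk* libraries below both wild-type libraries, while in *PHV*, *REV* and *ATHB8* the *stk* libraries lay on either side of the wild-type ones.

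*PHB* and *PHV* are closely related paralogs that act redundantly in adaxial fate, and 84.6% of aligned bases were identical between their coding sequences. *PHB* had 23.8 and 24.3 RPKM in *stk*, against 28.9 and 25.8 RPKM in wild type. Both mutant libraries were below both wild-type libraries, and the wild-type libraries differed from each other by more than the mutant ones did. The means were 24.0 ± 0.354 RPKM in *stk* and 27.3 ± 2.22 RPKM in wild type (SD, n = 2 each). The log2 fold change of *PHB* was -0.18 (standard error 0.14, 95% interval -0.52 to 0.17, adjusted p = 0.723 by limma), so that a ratio as low as 0.696 and one as high as 1.12 lie within the interval on this scale.

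*PHV* had 24.1 and 28.1 RPKM in *stk*, against 26.3 and 25.4 RPKM in wild type. Its *stk* libraries were the lowest and the highest of the 4, so the groups overlapped. The means were 26.1 ± 2.82 RPKM in *stk* and 25.9 ± 0.634 RPKM in wild type (SD, n = 2 each). The log2 fold change of *PHV* was 0.01 (standard error 0.15, 95% interval -0.36 to 0.37, adjusted p = 0.991 by limma). The ratio of *PHB* to *PHV* within a library was 0.988 and 0.865 in *stk*, against 1.1 and 1.01 in wild type. With 2 libraries against 2, the smallest p an exact permutation test can give is 0.333, so non-overlap in a single value cannot pass a threshold.

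*REV*, which acts with *PHB* and *PHV* in the adaxial domain and also in the initiation of axillary and floral meristems, was the most abundant member by its mean over the libraries. It had 26.6 and 31.4 RPKM in *stk*, against 28.6 and 29.1 RPKM in wild type. As for *PHV*, the *stk* libraries were the lowest and the highest. The means were 29.0 ± 3.41 RPKM in *stk* and 28.9 ± 0.348 RPKM in wild type (SD, n = 2 each), and the log2 fold change was 0.00 (standard error 0.15, 95% interval -0.37 to 0.37, adjusted p = 0.995 by limma). The annotated end of *REV* overlaps AT5G60700 on the opposite strand by 67 bases, and reads there cannot be assigned to a strand.

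*CNA* and *ATHB8* form the other pair of close paralogs, with 74.5% of aligned coding bases identical, and both are known from the vasculature and, for *CNA*, from the shoot meristem. *CNA* had 16.8 and 16.7 RPKM in *stk*, against 19.3 and 17.6 RPKM in wild type. Both mutant libraries were again below both wild-type libraries. The means were 16.8 ± 0.0756 RPKM in *stk* and 18.5 ± 1.25 RPKM in wild type (SD, n = 2 each), and the log2 fold change was -0.13 (standard error 0.14, 95% interval -0.47 to 0.21, adjusted p = 0.779 by limma).

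*ATHB8*, a gene of procambium and developing xylem that is induced by auxin, was the least abundant member in every library. It had 12.8 and 15.7 RPKM in *stk*, against 14.2 and 13.4 RPKM in wild type. The *stk* libraries were once more the lowest and the highest. The means were 14.2 ± 2.05 RPKM in *stk* and 13.8 ± 0.606 RPKM in wild type (SD, n = 2 each), and the log2 fold change was 0.04 (standard error 0.16, 95% interval -0.35 to 0.43, adjusted p = 0.954 by limma). Transcripts of differentiated xylem were measured beside it. The marker list of *VND7*, *XCP1*, *XCP2* and *IRX3* summed to between 61.5 and 72.3 RPKM in *stk* and between 39.7 and 41.5 RPKM in wild type, with 3 of 4 markers above 1 RPKM in every library. *VND7*, the regulator of vessel differentiation, averaged under 1 RPKM and ran the other way without overlap, with 0.504 and 0.458 RPKM in *stk*, against 0.656 and 0.609 RPKM in wild type. These values rest on 18 and 18 reads in *stk* and on 13 and 15 reads in wild type, so the direction of *VND7* is uncertain. The 3 markers tested each had an unadjusted p of at most 0.05 as higher in *stk*, and their part in the level of *ATHB8* was not tested.

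Non-overlap of the groups was common among all loci. Both *stk* libraries were below both wild-type libraries in 2 of the 5 class III HD-ZIP genes and in 26.8% of all loci tested, and the opposite held for none of the 5 and for 16.3% of all loci. Exon length moved with this difference. All 5 members fell in the longest quintile of loci, with exon models between 2936 bases in *PHV* and 3509 bases in model 3 of *CNA*. In that quintile (3803 loci) the median log2 fold change was -0.14, and 52.1% of loci had both *stk* libraries below both wild-type libraries. In the shortest quintile the median log2 fold change was 0.20.

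**Figure D2:**
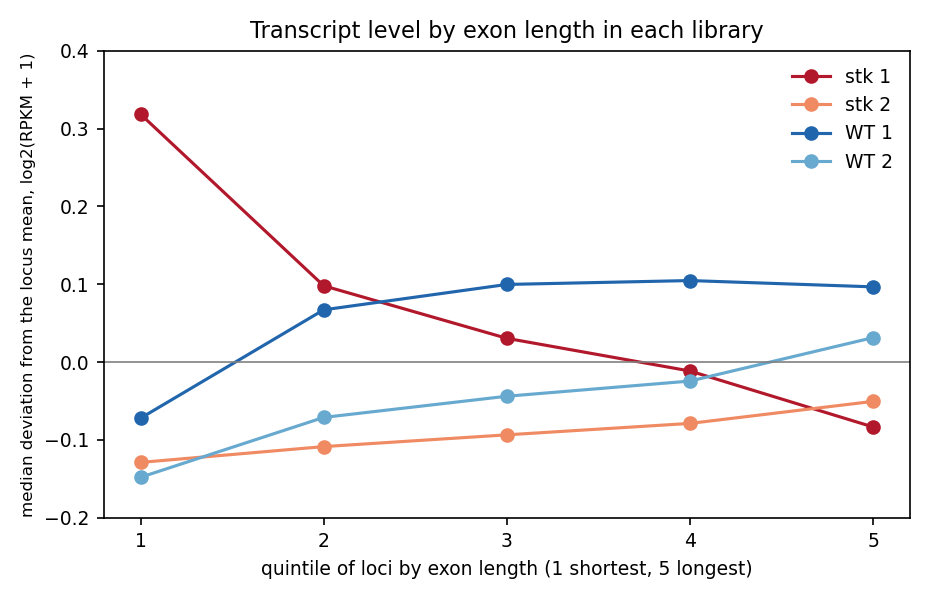
Median deviation of each library from the mean of the 4 libraries, in log2(RPKM + 1), for quintiles of loci by exon length. *stk* replicate 1 stood at 0.32 in the shortest quintile and at -0.08 in the longest, where all class III HD-ZIP genes lie, while the wild-type replicates stood at 0.10 and 0.03 in the longest.

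The trend with length was largest in *stk* replicate 1, the library whose header names another lane. When the trend of each library against exon length was removed, the log2 fold change of *PHB* was -0.05, and that of *CNA* was 0.01 and so of the opposite sign. *PHV*, *REV* and *ATHB8* then had 0.14, 0.15 and 0.17, with adjusted p = 0.651, 0.626 and 0.601 by limma. Libraries with lane 1 in their headers are 1 *stk* and 2 wild-type ones. Among them the log2 fold changes were -0.16 for *PHB*, -0.13 for *CNA*, 0.11 for *PHV*, 0.12 for *REV* and 0.17 for *ATHB8*. Without *stk* replicate 2, by contrast, those of *PHV*, *REV* and *ATHB8* were -0.10, -0.11 and -0.10. The direction of these 3 genes thus differed between the *stk* libraries.

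**Figure D3:**
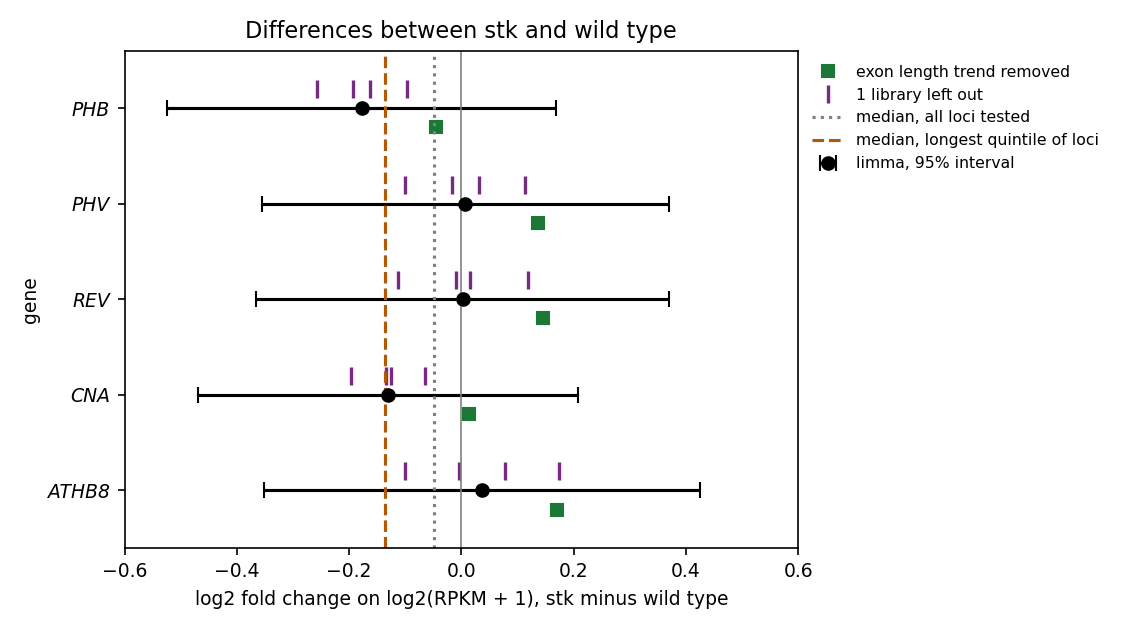
Log2 fold changes of the class III HD-ZIP genes, *stk* minus wild type, on the log2(RPKM + 1) scale. Circles with bars are limma estimates with 95% intervals, squares the estimates after removal of the trend with exon length, and ticks the estimates with 1 library left out. The dotted line is the median of all loci tested (-0.05) and the dashed line that of the longest quintile (-0.14). Every interval includes 0.

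The members were covered by 1181 to 3706 reads per library in *stk* and by 729 to 2148 reads in wild type, reads of *CNA* being those of its 3 models. Counting alone would give a standard error between 0.0295 and 0.0457 on the log2 scale, against 0.136 to 0.156 in limma, which draws its estimate of the spread from all loci. The SD within genotypes of the members themselves lay between 0.0656 for *CNA* and 0.144 for *ATHB8* on this scale. Replicates lay within each other's counting intervals in *stk* for *PHB* and *CNA* and in wild type for *PHV*, *REV* and *ATHB8*. Among the members, only *PHB* and *PHV* shared exact stretches with another locus when the longest annotated mRNA of every other locus was searched. In *PHB* 15 of 3097 windows of 50 bases, the read length, occurred unchanged in *PHV*, and in *PHV* 49 of 3030 windows occurred in *PHB* or in AT5G32670. No window of *REV*, *CNA* or *ATHB8* occurred in the mRNAs searched, which for AT5G60700 leave out the stretch that overlaps *REV*. Only exact matches were counted, whereas the study's mapping allowed mismatches, so reads could be shared beyond these windows.

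The order of the levels per length was nearly the same in all libraries. *ATHB8* was lowest and *CNA* next in each of them. *PHB*, *PHV* and *REV* formed a group between 23.8 and 31.4 RPKM, in which *REV* came first in 3 libraries and *PHB* in wild-type replicate 1. *PHB* and *PHV* do not differ beyond their spread, with means over the 4 libraries of 25.7 and 26.0 RPKM, and *REV* averaged 28.9 RPKM. *CNA* averaged 17.6 RPKM and *ATHB8* 14.0 RPKM. Ranked among all loci by this mean, *REV* stood at percentile 85.1 and *ATHB8* at percentile 69.5. *REV* was between 2.0 and 2.08 times as abundant as *ATHB8* in *stk* and between 2.01 and 2.18 times in wild type.

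Over the 4 libraries the 5 genes followed 2 profiles, given here as a description. The Euclidean distance between deviations from the gene's mean in log2(RPKM + 1) was 0.0580 for *PHB* and *CNA*, 0.0529 for *PHV* and *REV*, 0.0589 for *PHV* and *ATHB8* and 0.0884 for *REV* and *ATHB8*. Distances between a gene of one set and a gene of the other were 0.216 to 0.282. The sets were not those of sequence similarity, since *PHB* and *PHV* fell apart, as did *CNA* and *ATHB8*. Many other loci lay as near. Within a distance of 0.1 there were 1135 loci around *PHB* and 1427 around *CNA*, against 201 around *PHV*, 160 around *REV* and 72 around *ATHB8*.

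The nearest loci were *PEX14* (AT5G62810), AT1G05120 and AT3G29310 for *PHB*, at distances of 0.0037, 0.00774 and 0.0103. For *CNA* they were AT4G24290, AT2G24530 and *PUT2* (AT1G31830), at 0.00413, 0.00618 and 0.00859. *PHV* was nearest to *TEJ* (AT2G31870), AT1G79740 and *NLP7* (AT4G24020), at 0.0224 to 0.0259, and *REV* to AT1G61850, *CAK4* (AT1G66750) and *ATSUV3* (AT4G14790), at 0.0142 to 0.0248. *ATHB8* was nearest to *PAP20* (AT3G52780), AT3G27290 and AT5G02070, at 0.0205 to 0.0360. With 4 libraries such likeness rests on few points.

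*CNA* is the only member with more than 1 gene model in the files, and the assignment of its reads to models varied between replicates. The 3 models have recovered exon lengths of 3430, 3433 and 3509 bases. Model 2 has 3 coding bases more than model 1 (TAIR10.1 chr1:19410909-19410911), and model 3 retains 79 bases (chr1:19410060-19410138) that are spliced out of models 1 and 2 and are not coding in model 3, whose coding sequence is 2385 bases long, against 2511 and 2514 bases in models 1 and 2. Model 3 had 16.5 and 8.34 RPKM in *stk*, against 13.0 and 5.61 RPKM in wild type. Model 2 had 0.172 and 8.37 RPKM in *stk*, against 6.34 and 6.16 RPKM in wild type. Model 1 had 0.114 and 0 RPKM in *stk*, against 0 and 5.80 RPKM in wild type.

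In shares, model 3 took 98.3% and 50.5% of the *CNA* reads in *stk*, against 67.7% and 32.4% in wild type. Replicates of one genotype thus differed more in these shares than in the sum, which varied by a factor of 1.16 over the 4 libraries. The log2 fold changes of models 1, 2 and 3 were -1.3, -1.13 and 0.41, with adjusted p = 0.752, 0.793 and 0.837 by limma. The models share nearly all of their bases, so most reads fit all of them, and the levels of single models are less certain than their sum.

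**Figure D4:**
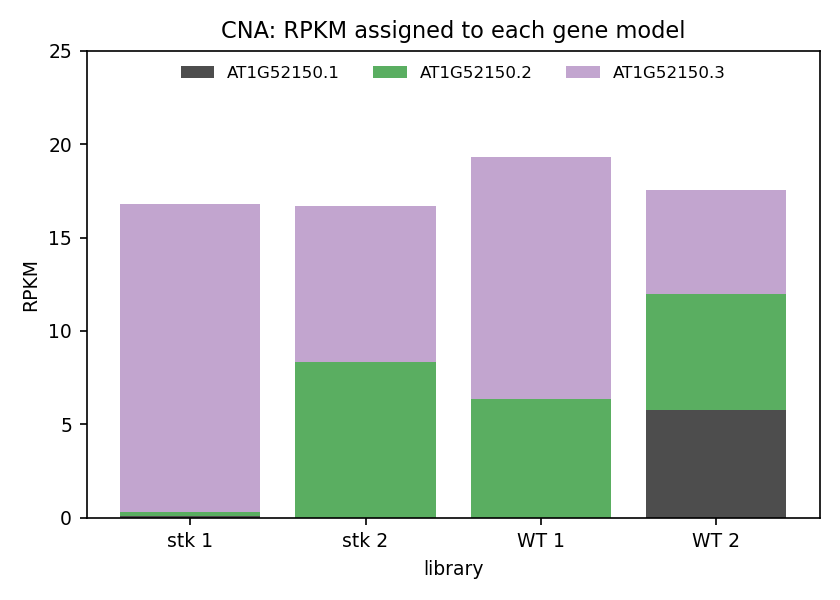
RPKM assigned to the 3 gene models of *CNA* (AT1G52150.1 to AT1G52150.3) in each library, stacked to the sum of the locus. The sum stayed between 16.7 and 19.3 RPKM, while the share of each model changed between replicates of one genotype.

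Genes that act on class III HD-ZIP transcripts and proteins were examined next. Of 7 genes of the miRNA pathway, all tested, none was past the threshold as higher and 1 as lower in *stk* at an unadjusted p of at most 0.05. Among all loci tested, 5.66% were past it as higher and 3.53% as lower. The median log2 fold change was -0.18, beside -0.05 over all loci tested. In the longest quintile, where all of these genes but *HYL1* fall by length, the median was -0.14. All 7 estimates were below 0 with every scaling tried except removal of the length trend, which left 4 below 0. *AGO10*, whose ARGONAUTE protein sequesters miR165 and miR166 away from AGO1, was the lowest of them. It had 16.7 and 16.7 RPKM in *stk*, against 24.9 and 20.8 RPKM in wild type, without overlap. Both *stk* libraries were likewise lower in 26.8% of all loci and in 52.1% of the longest quintile. Its log2 fold change was -0.42 (standard error 0.15, unadjusted p = 0.0320, adjusted p = 0.514 by limma), and it was -0.28 with an unadjusted p = 0.0609 after removal of the length trend. Without *stk* replicate 1, *stk* replicate 2 or wild-type replicate 1, the unadjusted p in limma was 0.0764, 0.0777 and 0.129, with log2 fold changes of -0.42, -0.42 and -0.30. Without wild-type replicate 2 the log2 fold change was -0.54, with an unadjusted p of 0.0290.

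*AGO1*, the main effector of the miRNAs, had 76.3 and 83.2 RPKM in *stk*, against 96.1 and 88.9 RPKM in wild type. The groups did not overlap, which held in this direction for 52.1% of the longest quintile. The log2 fold change of *AGO1* was -0.21 (adjusted p = 0.672 by limma). The highest value of the list was that of *HYL1*, a partner of the Dicer protein DCL1, with a log2 fold change of -0.03. *DCL1*, *SE*, *HST* and *HEN1*, which process, export and methylate miRNAs, lay between -0.19 and -0.08.

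Of the LITTLE ZIPPER genes, which class III HD-ZIP proteins are known to activate, 3 of 4 were measured and tested, and *ZPR4* was not analysed here. At an unadjusted p of at most 0.05, 1 was higher and none lower in *stk*, beside 5.66% and 3.53% of all loci. *ZPR2* had 4.84 and 2.54 RPKM in *stk*, against 1.005 and 1.76 RPKM in wild type. Its groups did not overlap, as for 16.3% of all loci in this direction, and *stk* replicate 1 was the highest library. The log2 fold change of *ZPR2* was 0.95 (standard error 0.29, unadjusted p = 0.0180, adjusted p = 0.513 by limma). It was 0.38 after removal of the length trend, with an unadjusted p = 0.0381 by limma. It was 0.59 without *stk* replicate 1 and 0.72 without wild-type replicate 1. With the rewritten Baggerley's test the unadjusted p of *ZPR2* was 0.164. The wild-type value of replicate 1 rests on 8 and 3 reads in the 2 models of the gene.

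*ZPR1* had 3.91 and 1.77 RPKM in *stk*, against 2.74 and 3.28 RPKM in wild type, and a log2 fold change of -0.12. *ZPR3* had 5.15 and 1.97 RPKM in *stk*, against 3.17 and 2.26 RPKM in wild type, and a log2 fold change of 0.21. In both genes the *stk* libraries were the highest and the lowest of the 4.

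All 4 KANADI genes were tested, and none had an unadjusted p of at most 0.05 in either direction. The median log2 fold change was -0.15. *KAN2* was lowest, with 9.25 and 9.90 RPKM in *stk*, against 11.9 and 11.5 RPKM in wild type, and a log2 fold change of -0.26 (unadjusted p = 0.0974, adjusted p = 0.600 by limma). *KAN1* also had groups that did not overlap, with 6.68 and 7.45 RPKM in *stk*, against 8.24 and 8.33 RPKM in wild type. In this direction the groups of 26.8% of all loci did not overlap. *KAN3* was highest at 0.10. *KAN4*, known as *ABERRANT TESTA SHAPE* for its role in the integuments, had 2.01 and 1.85 RPKM in *stk*, against 2.44 and 1.87 RPKM in wild type.

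Among 7 other regulators of polarity, 5 were tested, and *ESR1* and *ESR2* averaged under 1 RPKM. At an unadjusted p of at most 0.05, none was higher and 1 lower in *stk*, beside 5.66% and 3.53% of all loci. The median log2 fold change was -0.13, beside -0.05 over all loci tested. All 5 estimates were below 0 with every scaling tried except removal of the length trend, which left 3. *MONOPTEROS* (*MP*), the auxin response factor that activates *ATHB8*, had 32.8 and 34.5 RPKM in *stk*, against 48.8 and 40.8 RPKM in wild type. The groups of *MP* did not overlap, as for 52.1% of loci of the longest quintile, to which *MP* belongs. Its log2 fold change was -0.40 (standard error 0.15, unadjusted p = 0.0420, adjusted p = 0.527 by limma). With the length trend removed it was -0.25 with an unadjusted p = 0.0747 by limma. It was -0.36 without *stk* replicate 1, -0.43 without *stk* replicate 2, -0.27 without wild-type replicate 1 and -0.52 without wild-type replicate 2. The unadjusted p of *MP* was 0.0537 by limma with a pseudocount of 0.1 and 0.0396 with the rewritten Baggerley's test. *AS1*, an adaxial MYB-domain factor, had the highest value of the list, -0.06.

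**Figure D5:**
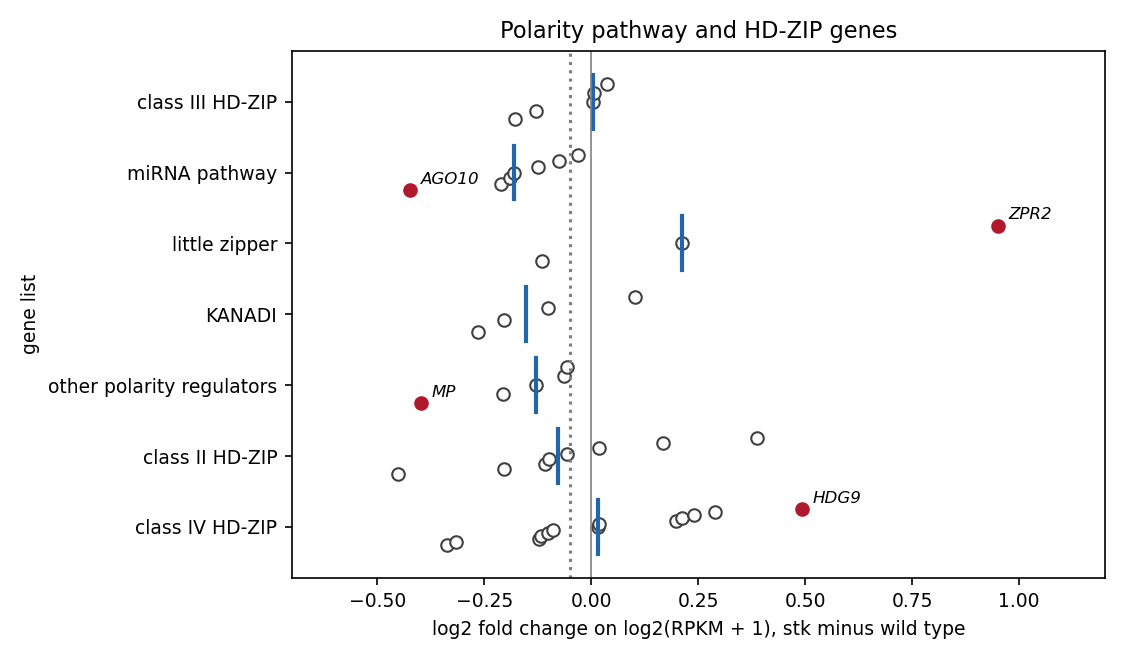
Log2 fold changes, *stk* minus wild type on the log2(RPKM + 1) scale, of the tested genes of each list. Filled points are genes with an unadjusted p of at most 0.05, which are named, open points the others, vertical bars list medians and the dotted line the median of all loci (-0.05). No class III HD-ZIP gene is filled.

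The related HD-ZIP classes were taken for comparison with class III. In class II, whose members include targets of REV and regulators of shade responses, 8 of 10 genes were tested and none had an unadjusted p of at most 0.05. The median log2 fold change was -0.08, and the extremes were *HAT9* at -0.45 and *HAT14* at 0.39. *HAT9* had 11.5 and 7.67 RPKM in *stk*, against 14.1 and 12.5 RPKM in wild type. *HAT14* had 8.40 and 6.39 RPKM in *stk*, against 4.92 and 5.86 RPKM in wild type. Both were under an unadjusted p of 0.05 with quantile normalization, median centring or removal of the length trend.

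In class IV, which includes regulators of the epidermis, 13 of 16 genes were tested. At an unadjusted p of at most 0.05, 1 was higher and none lower, beside 5.66% and 3.53% of all loci. The median log2 fold change was 0.01. *HDG9* had 2.12 and 1.65 RPKM in *stk*, against 0.820 and 1.298 RPKM in wild type, with a log2 fold change of 0.49 (unadjusted p = 0.0356, adjusted p = 0.515 by limma). Its unadjusted p was 0.118 without *stk* replicate 1 and 0.168 without wild-type replicate 1. The lowest value was that of *HDG5* at -0.34. With removal of the length trend, 4 class IV genes were past this threshold as higher and none as lower, while 7.14% of all loci were past it as higher with this scaling. The range of fold changes was -0.18 to 0.04 in class III, -0.45 to 0.39 in class II and -0.34 to 0.49 in class IV, and the difference between classes was not tested.

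The exact CArG box, the motif bound by MADS-domain factors such as STK, was searched on both strands in 1000 bases upstream of each annotated mRNA. None of the 5 class III HD-ZIP genes had a match in this window, and 6.94% of 31346 loci had one. The absence of these letters says nothing of boxes elsewhere or of imperfect ones.

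Marker genes were read beside the members. All 5 floral organ markers and all 4 of ovule and seed coat were above 1 RPKM in every library, as were 2 of the 4 root markers, *SCR* (15.1 to 16.3 RPKM) and *COBL9* (1.45 to 3.51 RPKM). The root markers *PYK10* and *RCH1* were below 1 RPKM in every library. The summed level in *stk* against wild type was 417 to 564 against 403 to 458 RPKM for floral organs, 102 to 115 against 60.5 to 60.9 RPKM for ovule and seed coat, 359 to 412 against 427 to 516 RPKM for pollen, and 84.8 to 86.1 against 59.5 to 62.3 RPKM for phloem. It was 6.82 to 7.02 against 2.44 to 4.97 RPKM for endosperm, 13793 to 14453 against 11152 to 11923 RPKM for green tissue and 16.9 to 18.1 against 17.7 to 20.3 RPKM for root. Single genes carried some of these sums. *SEP3* alone among the floral organ markers had a positive log2 fold change (0.79), and the median of that list was -0.12. The ovule and seed coat sum was mostly *BAN*, an enzyme gene of proanthocyanidin synthesis, with 77.4 and 89.8 RPKM in *stk*, against 36.9 and 39.8 RPKM in wild type. *TT8*, a regulator of *BAN*, had 6.10 and 6.69 RPKM in *stk*, against 4.41 and 3.78 RPKM in wild type. Its log2 fold change was 0.54 (unadjusted p = 0.0110, adjusted p = 0.502 by limma). The ovule genes *BEL1* and *INO* had log2 fold changes of -0.07 and 0.12. Of the pollen markers, *MGH3* ran against the sum, with 3.37 and 2.23 RPKM in *stk*, against 2.39 and 1.71 RPKM in wild type. *SHT*, which was listed with the pollen markers and enters their sum, had 62.4 and 60.9 RPKM in *stk*, against 122 and 65.6 RPKM in wild type. Its difference thus rested mostly on wild-type replicate 1. The part of these differences in the levels of the class III HD-ZIP genes was not tested.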

How the data were processed

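RNA-Seq libraries from 2 *stk* and 2 wild-type samples were examined. Per the study's methods, reads were mapped to TAIR10 in CLC Genomics Workbench, allowing mismatches, and reads that fit several places were shared among them in proportion to unique reads. The authors deposited RPKM values for 35182 gene models of 27206 loci. Tables of enriched GO terms hold the authors' own findings and were not used.

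Models were summed per locus, and log2(RPKM + 1) was tested with limma 3.58.1 (lmFit and eBayes, R 4.3.3) for loci with a mean of at least 1 RPKM, with Benjamini-Hochberg adjustment over 19044 loci. The procedure was tested on simulated data. Tables and figures were made with Python 3.11.15, pandas 2.3.3, numpy 2.4.6, scipy 1.17.1, biopython 1.88 and matplotlib 3.10.9.

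Library sizes and exon lengths were recovered from RPKM values, of which between 98.2% and 98.4% of the low ones gave whole reads within 0.01. They are estimates. At this depth 3 reads equal between 0.0891 and 0.177 RPKM in a transcript of 1 kb, and intervals cover counting error only. Sequences and sites come from the RefSeq annotation of TAIR10.1, which shares chromosome coordinates with TAIR10, but its exon models can differ from those of the files.

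Members and gene lists were chosen with earlier results of these data known. Named are the members, *STK*, *AGO1*, *AGO10*, the ZPR genes, list genes with an unadjusted p of at most 0.05, the extremes of each list and the 3 loci nearest to each member in profile. *KAN1*, *KAN4* and genes of the miRNA pathway named as a range were added after their values were seen. Alternatives covered normalization, filters, pseudocount, single models, exon length, Baggerley's test (rewritten from its published form and run on summed RPKM), a block for the replicate number and the omission of each library. At the study's thresholds of p and fold change, the rewritten test called fewer loci than the study listed. The rewritten test took RPKM as counts, and the input totals of the study's own test are not known here.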

Additional observations from a re-analysis of the deposited data

How the results depend on the processing

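In 80 re-estimates of the 5 members over 16 alternatives, none had an adjusted or an unadjusted p under 0.05 (lowest unadjusted p = 0.177, for *PHB*, by limma), and adjusted p ranged from 0.562 to 1. *PHB* stayed below 0 in all of them (-0.26 to -0.05). With the rewritten Baggerley's test, which compares shares of the summed RPKM, the log2 ratios of *PHV*, *REV* and *ATHB8* were -0.0531, -0.0538 and -0.0193. *CNA* was at 0.0145 after removal of the length trend, with and without the replicate block, and at 0.41 when its most abundant single model was tested. With 1 library left out the range was -0.10 to 0.11 for *PHV*, -0.11 to 0.12 for *REV*, -0.10 to 0.17 for *ATHB8*, -0.26 to -0.10 for *PHB* and -0.20 to -0.06 for *CNA*.

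Loci with an adjusted p under 0.05 numbered 0, against 5 with quantile normalization, 5 with median centring, 4 with the length trend removed, 1 with limma's trend option, 2 for single models and 22 with Baggerley's test. They numbered 0 to 1575 with 1 library left out (336 without *stk* replicate 1 and 1575 without *stk* replicate 2). Loci at an unadjusted p up to 0.05 that also had a 2-fold ratio numbered 652 (590 higher and 62 lower in *stk*), against 50 with Baggerley's test and 294 to 1305 with 1 library left out.

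Same-numbered replicates deviated with a correlation of -0.127 over 19044 loci, which does not establish a pairing. With the replicate block, the log2 fold change of *PHB* stayed at -0.18, 0 loci had an adjusted p under 0.05 and 496 met the unadjusted p with the 2-fold ratio. A block with crossed numbers, added after seeing the data, gave 921 and 887. Where a library was left out, the lone sample of its genotype was assumed to vary like the other. The cause of these shifts was not tested. The adjusted p of *STK* by limma or Baggerley's test ranged from 2.283e-16 to 0.953, while its log2 fold change stayed between -2.39 and -2.15.

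With 2 libraries per genotype the 95% intervals of the members allow ratios from 0.696 to 1.34 on the log2(RPKM + 1) scale. *STK*, at a log2 fold change of -2.19, had an adjusted p of 0.0884 in limma at the main settings. With other settings of limma its adjusted p fell on either side of 0.05, for example 0.0189 with quantile normalization and 0.186 with a pseudocount of 0.1.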
